A study of Mus musculus with 4 samples.

Results

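The genes described here build elastic fibres and the fibrillin microfibrils around them. The list of 10 genes was set by name: elastin (Eln), the fibrillins Fbn1 and Fbn2, the fibulins Fbln1, Fbln2, Fbln5, Efemp1 (fibulin-3) and Efemp2 (fibulin-4), the microfibril-associated glycoprotein Mfap5 and the interface protein Emilin1. Every probe set that the platform annotation pairs with one of them alone was used, which gave 16 probe sets for 8 genes among 45101 probe sets in all. The annotation used here pairs no probe set with Fbn1 or Efemp2, and those 2 genes were not analysed here. The list was set with earlier results of these data known.

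Elastic fibres give skin, arteries and lung their recoil. Fibrillins assemble outside the cell into microfibrils, fibulins carry tropoelastin onto that scaffold, and lysyl oxidases crosslink it into an insoluble core. Microfibrils also bind latent TGF-beta complexes, and fibroblasts and smooth muscle cells are the main producers of all these proteins.

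The arrays compared mouse embryonic fibroblasts of FAK+/+ (wild-type) and FAK-/- (knockout) mice. FAK, focal adhesion kinase, relays signals from integrins at the sites where cells hold on to matrix. Cells of both genotypes were at passage 5 after growth in 10% serum, and all were serum-starved for 24 h from 50% confluence. They then spent 24 h with or without endothelin-1 (ET-1), a vasoactive peptide that acts on G protein-coupled receptors, at a dose not given in the sources used here. Each of the 4 groups (untreated wild type, ET-1-treated wild type, untreated knockout, ET-1-treated knockout) was 1 array. The sources used here name neither the number of embryos nor the number of cell lines behind a genotype, so genotype and line cannot be told apart.

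All values below are RMA values on the log2 scale, in which a difference of 1 is 2-fold, and levels of different probe sets are not comparable with each other. Where a gene had several probe sets, the one with the highest mean over the arrays stood for it. All 8 measured members passed the filter on low values, a highest value above 8.90, the median of the whole table, as did 12290 of 18194 genes. A gene can pass this filter through 1 genotype alone, as Fbn2 did through the knockout. With 1 array per group no difference between 2 arrays has an error. The only test was an additive limma fit of genotype and treatment to all arrays. Its error comes from the genotype by treatment term (1 residual degree of freedom), which limma moderates toward a value estimated from all genes. It is not a spread between cultures.

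1 array stood apart in its control transcripts. For Gapdh the gap between its 3' and 5' probe sets was 3.79 in ET-1-treated wild type and 0.85 to 0.90 elsewhere, and the same gap for Actb was 1.81 against 0.66 to 1.30. Every ET-1 value of wild type and every averaged value below uses that array, while the untreated genotype difference does not. Of 12 fibroblast markers, 11 read above 8.90 in both wild-type arrays, 11 in the untreated and 9 in the ET-1-treated knockout, and Lum was below it in all arrays. By limma, 9 of the 11 tested were lower and 1 was higher in the knockout, against 7.05% and 6.6% of all genes. Of 7 smooth muscle markers tested, 5 were lower and 1 was higher by limma. The marker lists were chosen with earlier results of these data known. Of the 6 endothelial markers 5 were below 8.90 in every array. Of 8 epithelial markers 7 were tested and Cdh1 was below 8.90 in every array. By limma Krt18 (4.32), Dsp (2.13) and Krt8 (1.11) were higher and Krt19 (-2.98) lower in the knockout. That is 3 of 7 higher and 1 lower, against 6.6% and 7.05% of all genes. Krt8, Krt18 and Krt19 are also in the list of mesothelial markers further below, so the 2 lists are not separate counts. Dsp read 7.69 and 7.30 in wild type and Krt19 8.86 and 7.99 in the knockout, all below 8.90. Krt18 was below it in ET-1-treated wild type, so the sizes of these 3 genes are uncertain. Krt18 and Krt14 were at least 2-fold lower after ET-1 in wild type (2 of 7, against 1.17% of all genes). They read 7.48 and 8.45 in ET-1-treated wild type, below 8.90, so the sizes are uncertain. The annotation used here pairs no probe set with the FAK gene itself, so the genotype labels were not checked.

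In the knockout Fbn2, a fibrillin, was higher and Emilin1, an interface protein, was lower. These were the 2 of 8 members that passed limma at an adjusted p under 0.05, averaged over treatments. That is 1 of 8 higher, against 6.6% of all 12290 genes, and 1 of 8 lower, against 7.05%. Fbn2 entered this test only through its knockout values, which alone were above the filter level. Among the untreated arrays the 8 members had a median difference of 0.11, beside 0.02 for all genes, and among the ET-1-treated arrays 0.69, beside -0.03. In untreated cells Eln, Fbn2 and Efemp1 were at least 2-fold higher in the knockout (3 of 8, against 4.78% of all genes) and Emilin1 was at least 2-fold lower (1 of 8, against 4.59%). After ET-1 the same 3 genes were at least 2-fold higher (against 5.61%), and Fbln5, Mfap5 and Emilin1 were at least 2-fold lower (3 of 8, against 6.53%). With the mean of all probe sets, Eln in untreated cells (0.60) and Fbln5 (-0.70) and Emilin1 (-0.79) after ET-1 were under 2-fold. In a bulk sample, fewer cells of a type and less RNA per cell cannot be told apart.

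**Figure D1:**
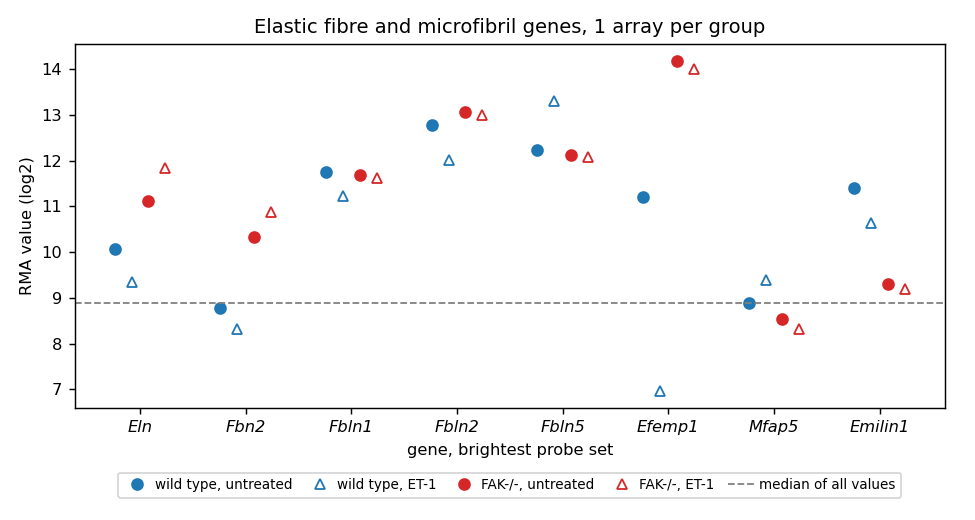
RMA value (log2) of the brightest probe set of each measured member on each of the 4 arrays. Blue marks wild type, red the knockout, filled circles untreated and open triangles ET-1-treated cells; the dashed line is the median of all values, 8.90. The Efemp1 value of ET-1-treated wild type, 6.96, lies far below its other 3 values.

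Elastin is the hydrophobic, crosslinked polymer that stretches. The bright Eln probe set (1420855_at) read 10.08 in untreated and 9.34 in ET-1-treated wild type, and 11.12 and 11.85 in the untreated and ET-1-treated knockout. Both knockout arrays were above both wild-type arrays. Without ET-1 the difference was 1.03 (2.04-fold), and with it 2.50 (5.66-fold). By limma the averaged difference was 1.77 ± 0.38 (SE), with an adjusted p of 0.0634 that did not pass, and adjusted p-values of 0.0065 to 0.0966 under the alternatives. The other Eln probe set (1420854_at) lay nearly flat, at 9.99 in both wild-type arrays, 10.16 in the untreated knockout and 10.30 in the ET-1-treated knockout. Its order of genotypes was the same and its averaged difference was 0.24 ± 0.11 in a limma fit over 20939 single probe sets (adjusted p = 0.267). The size of the Eln difference therefore rests on 1 of its 2 probe sets, and the mean of both put the untreated difference at 0.60.

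Fibrillins form the microfibril backbone, and fibrillin-2 is the form most used in the embryo. Fbn2 read 8.78 and 8.32 in untreated and ET-1-treated wild type and 10.34 and 10.87 in the knockout (1454830_at). Both wild-type values were below 8.90 and both knockout values well above it, so the folds, 2.95 without ET-1 and 5.84 with it, are uncertain in size. Fbn2 rose in the knockout by 2.05 ± 0.26 (SE) averaged over treatments (limma, adjusted p = 0.02). It passed the level filter only through its knockout values, and without that filter the adjusted p was 0.034 (limma). Its other probe set (1422831_at) read 8.16 and 8.36 in wild type and 9.51 and 9.63 in the knockout. It showed the same direction, with an averaged difference of 1.31 ± 0.12 (adjusted p = 0.024 in the limma fit over single probe sets). Fbn2 was the only member whose 2 probe sets both passed that fit, and both entered it only through their knockout values.

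Fibulins are calcium-binding glycoproteins that bridge elastin, microfibrils and basement membranes. Fbln1, which lies within the elastic core and in basement membranes, was the 1 member whose genotypes overlapped over the arrays. Its bright probe set (1451119_a_at) read 11.75 and 11.23 in untreated and ET-1-treated wild type and 11.68 and 11.63 in the knockout. The averaged difference was 0.17 ± 0.19 (limma, adjusted p = 0.645), and the 2 other Fbln1 probe sets gave 0.24 and 0.07. All 3 were within 0.20 of wild type in untreated cells and between 0.30 and 0.40 above it after ET-1. Fbln2, a larger fibulin that binds fibrillin and versican, read 12.78 and 12.02 in wild type and 13.06 and 12.99 in the knockout (1423407_a_at). The knockout was above both wild-type arrays, but the averaged difference of 0.63 ± 0.23 did not pass limma (adjusted p = 0.176). Its other probe set (1438375_at) stayed below 8.90 in every array, with overlapping genotypes. Without the ET-1-treated wild-type array, the knockout mean differed from untreated wild type by 0.25 for Fbln2 and by -0.09 for Fbln1, the opposite sign to the average of Fbln1.

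Fbln5 ties tropoelastin to microfibrils and to integrins on the cell surface. It read 12.23 in untreated wild type, 13.30 in ET-1-treated wild type, 12.13 in the untreated knockout and 12.09 in the ET-1-treated knockout (1416164_at). Thus 3 arrays lay close together and ET-1-treated wild type stood above them. The genotypes differed by -0.10 without ET-1 and by -1.20 with it, and the average of -0.65 ± 0.32 did not pass limma (adjusted p = 0.274). Without the ET-1-treated wild-type array, the mean of both knockout arrays differed from untreated wild type by -0.12. The other probe set of Fbln5 (1446377_at) read 8.36 to 8.56, below 8.90 in every array.

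Efemp1, which encodes a fibulin of loose connective tissue and the retina that also binds the metalloproteinase inhibitor TIMP-3, had the widest range of all members, 7.24. Its single probe set (1427183_at) read 11.21 in untreated wild type, 6.96 in ET-1-treated wild type, 14.19 in the untreated knockout and 14.01 in the ET-1-treated knockout. The knockout arrays lay within 0.18 of each other, and the wild-type arrays lay far apart. In untreated cells the knockout was 7.93-fold higher, and 42 of 12290 genes were further in that direction. After ET-1 the difference was 7.06, but wild type was far below 8.90 there, so its size is uncertain. The averaged difference of 5.02 ± 1.03 did not pass limma (adjusted p = 0.0556, with 0.00428 to 0.0865 under the alternatives). The genotype by treatment term of Efemp1, -4.07, enters that SE, which limma moderates toward a value estimated from all genes. Leaving out the ET-1-treated wild-type array put the mean of both knockout arrays 2.90 above untreated wild type.

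Mfap5 (MAGP-2) is a small glycoprotein on the microfibril surface that binds fibrillins and growth factors. Its bright probe set (1449082_at) read 8.89 and 9.40 in untreated and ET-1-treated wild type and 8.53 and 8.32 in the knockout. Both knockout values were below both wild-type values, but 1 of the 4 arrays was above 8.90, so the gene is dim here. Its other probe set (1418454_at) read 9.01 and 9.26 in wild type and 8.38 and 8.19 in the knockout. Without the ET-1-treated wild-type array, the mean of both knockout arrays differed from untreated wild type by -0.47 for the bright probe set. Both probe sets were 1.08 lower after ET-1 and 0.36 and 0.63 lower in untreated cells. The averaged difference was -0.72 ± 0.20 (limma, adjusted p = 0.106).

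Emilin1 sits where elastin meets the microfibrils and restrains the processing of pro-TGF-beta. It read 11.40 in untreated and 10.64 in ET-1-treated wild type, against 9.31 and 9.19 in the knockout (1416414_at). All 4 values were above 8.90 and the genotypes did not overlap. The knockout was 4.28-fold lower in untreated cells and 2.73-fold lower after ET-1. Emilin1 fell by 1.77 ± 0.19 (SE) averaged over treatments (limma, adjusted p = 0.0143). Its other probe set (1431834_a_at) read 8.85 and 8.40 in wild type and 8.31 and 8.28 in the knockout, below 8.90 in every array, with the same order of genotypes at -0.54 and -0.12.

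**Figure D2:**
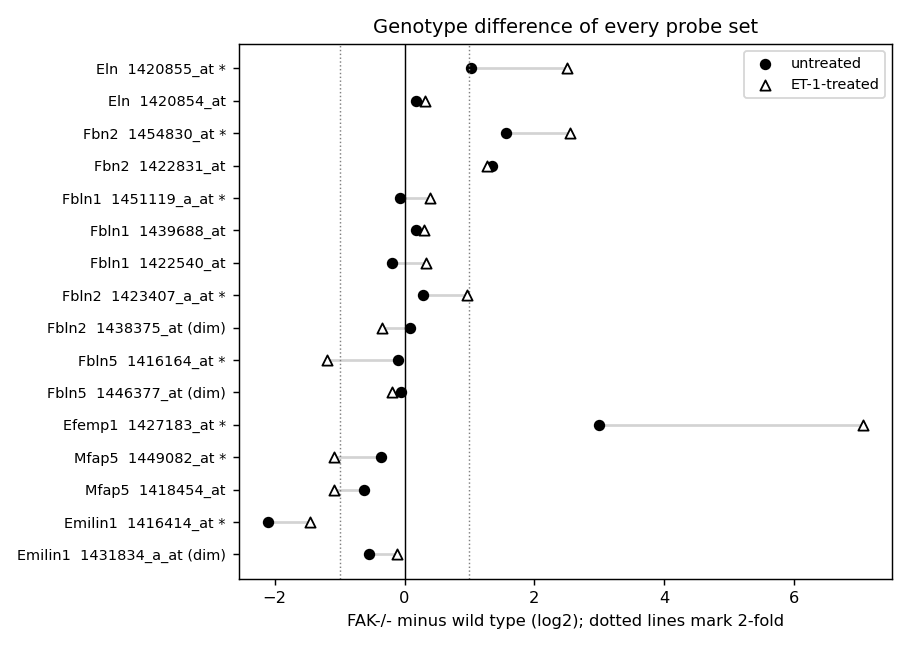
Knockout minus wild-type difference (log2) of all 16 probe sets, in untreated cells (filled circles) and after ET-1 (open triangles); an asterisk marks the brightest probe set of a gene and "dim" a probe set below 8.90 in every array. Dotted lines mark 2-fold. Both Fbn2 probe sets lie beyond 2-fold in both states, while 1 of the 2 Eln probe sets stays near 0.

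Over the 4 arrays, the brightest probe sets of 7 of the 8 members had no overlap between genotypes, with 4 higher and 3 lower in the knockout. The same holds for 59.3% of all genes (30% higher and 29.3% lower), so a lack of overlap sets no member apart by itself. Over single probe sets it was 13 of the 16, against 51.4% of all probe sets paired with 1 gene. In the limma fit over single probe sets, 3 of 13 bright member probe sets passed, 2 of Fbn2 and 1 of Emilin1, against 8.45% of all.

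**Figure D3:**
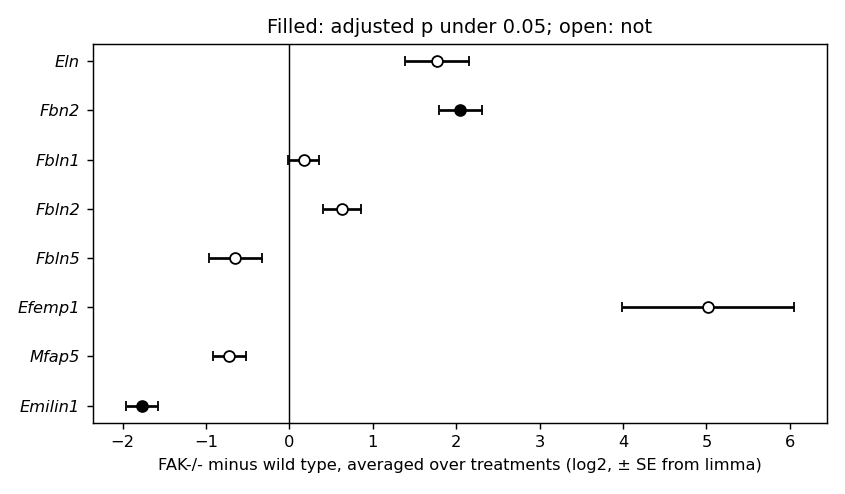
Knockout minus wild-type difference averaged over treatments (log2) for the 8 measured members, with bars of 1 SE from limma. Filled points passed an adjusted p under 0.05: Fbn2 at 2.05 and Emilin1 at -1.77. The bar of Efemp1 is the widest, 1.03 to each side.

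After ET-1, Fbln5 and Efemp1 differed most from untreated cells, both in wild type. There Fbln5 was at least 2-fold higher (1 of 8, against 0.781% of all genes) and Efemp1 at least 2-fold lower (1 of 8, against 1.17%). In the knockout 0 of 8 members reached 2-fold in either direction, against 0.513% of all genes. The wild-type median of the members was -0.63, beside 0.05 for all genes, and the knockout median was -0.05, beside -0.02. Averaged over genotypes, 0 of 8 members and 0% of the 12290 genes passed limma, and 643 genes (5.23%) but no member had an unadjusted p under 0.05. Efemp1 differed by -2.21 ± 1.03 there (adjusted p = 0.78) and Emilin1 by -0.44 ± 0.19 (adjusted p = 0.78).

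Fbln5 was 1.07 higher (2.10-fold) after ET-1 in wild type, with 73 genes further in that direction, and -0.03 different in the knockout. With quantile normalisation the wild-type value was 0.96, just under 2-fold. Efemp1 differed by -4.25 in wild type and by -0.18 in the knockout, and the size of the first is uncertain because ET-1-treated wild type read 6.96. Eln, Fbln2 and Emilin1 differed by -0.74, -0.76 and -0.76 in wild type. In the knockout Eln differed by 0.73, the highest of the members there, with 72 of all genes further, and Fbln2 and Emilin1 differed by -0.06 and -0.11. Fbn2 differed by -0.45 in wild type and by 0.53 in the knockout, with 0.20 and 0.12 by its other probe set. The other Eln probe set gave 0.01 and 0.14. All these wild-type differences use the array with the large gap between the ends of Gapdh, and the part of that gap in them was not tested.

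**Figure D4:**
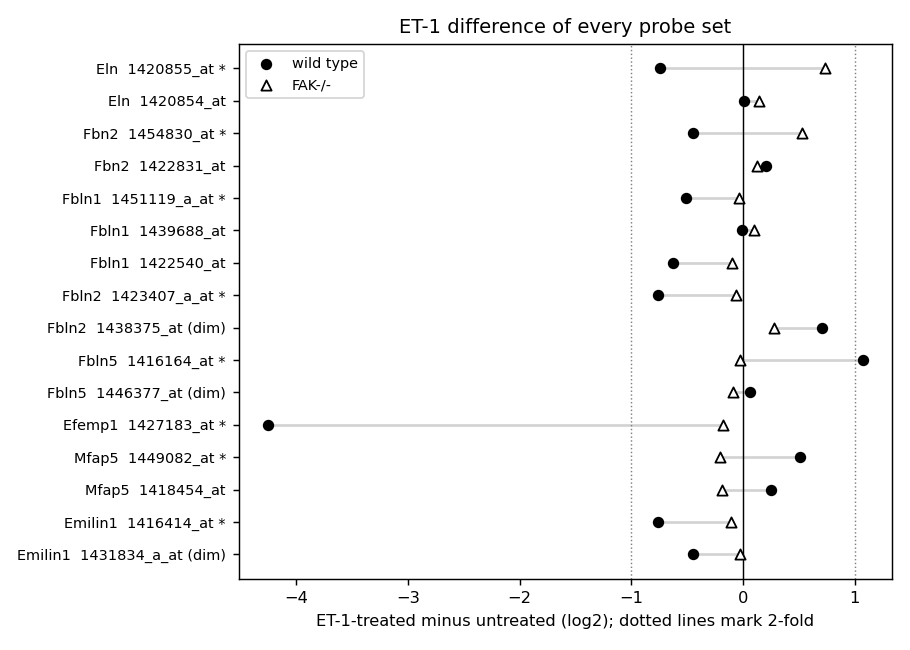
ET-1-treated minus untreated difference (log2) of all 16 probe sets, in wild type (filled circles) and in the knockout (open triangles), with asterisks and "dim" as for the genotype differences. Every knockout triangle lies within 0.73 of 0. The filled circles spread from -4.25 for Efemp1 to 1.07 for Fbln5.

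The ET-1 differences of wild type and knockout lay 2-fold or more apart in 3 of 8 members, against 2.9% of all genes. As wild type minus knockout, the term was 1.10 for Fbln5, -1.47 for Eln and -4.07 for Efemp1. With 1 array per group this term has no error estimate. With the mean of all probe sets, Eln stood at -0.80 and Fbln5 at 0.63, and quantile normalisation put Fbln5 at 0.98.

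The upstream sequences of Efemp1 and Fbln5 are shown because these were the members at 2-fold or more after ET-1 in wild type, in opposite directions. They come from RefSeq on GRCm38.p6 and run from 250 to 52 bases before the annotated transcript start, 199 bases written 5′ to 3′ on the gene's strand. Efemp1 lies on the plus strand at chr11:28852955-28853153 and Fbln5 on the minus strand at chr12:101819171-101819369. The length was set so that the Efemp1 window ends just before its annotated gene, and the Fbln5 window of that length also lies outside its gene. Capitals mark matches on either strand to one of 6 motifs: TGANTCA for AP-1, GGGCGG for the GC box, GGAATG for TEAD factors, CAGACA for SMAD proteins, CANNTG for the E-box and TATAAA for the TATA box.
Efemp1: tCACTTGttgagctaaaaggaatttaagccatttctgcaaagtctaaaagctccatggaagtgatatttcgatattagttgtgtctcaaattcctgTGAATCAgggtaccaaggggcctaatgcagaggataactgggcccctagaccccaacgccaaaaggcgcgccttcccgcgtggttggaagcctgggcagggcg
Fbln5: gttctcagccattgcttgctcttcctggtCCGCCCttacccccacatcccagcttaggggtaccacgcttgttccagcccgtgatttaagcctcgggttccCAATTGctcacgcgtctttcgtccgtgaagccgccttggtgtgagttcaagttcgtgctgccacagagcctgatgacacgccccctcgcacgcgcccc

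In the Efemp1 window the matches were 1 E-box and 1 AP-1 motif. The Fbln5 window shown held 1 GC box and 1 E-box. Another Fbln5 promoter window, which does not lie outside the annotated gene, is not shown and held 0 matches to the 6 motifs. No matches overlapped. Of 32851 promoter windows of the same length, 5.55% held the AP-1 motif, 24.4% the GC box and 58.9% the E-box. The remaining motifs, in neither window shown, were in 10.6% (TEAD), 14.2% (SMAD) and 9.11% (TATA). A match is a description of letters and not a binding site.

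The pattern of Efemp1 was set beside a list of mesothelial markers, the genes of the epithelium-like cells that line body cavities. The list was chosen with earlier results of these data known, so its counts are a description and not a test of the list. In the knockout 7 of these 10 markers were higher and 1 was lower by limma, against 6.6% and 7.05% of all genes. Of the 10, 6 were at least 2-fold lower after ET-1 in wild type, against 1.17% of all genes, and 0 were in the knockout. The sum of their unlogged values was 22550 in untreated wild type, 10360 in ET-1-treated wild type, 113600 in the untreated knockout and 99370 in the ET-1-treated knockout. Above 8.90 were 9 of 10 in untreated wild type, 4 in ET-1-treated wild type and 9 in each knockout array. Upk3b, a uroplakin of mesothelium, read 12.39, 8.88, 14.75 and 14.66 in that order of arrays, and Wt1, the mesothelial transcription factor, read 10.20, 8.47, 13.43 and 13.41. Msln, which encodes mesothelin, did not move with ET-1 in this way, at 12.05 in both wild-type arrays and 13.08 and 12.96 in the knockout. Krt19 was the lower one in the knockout (-2.98), where both of its values were below 8.90, so the size is uncertain. Krt8, Krt18 and Krt19 are in the epithelial list as well and were counted in both. The part of such cells in the Efemp1 values was not tested.

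**Figure D5:**
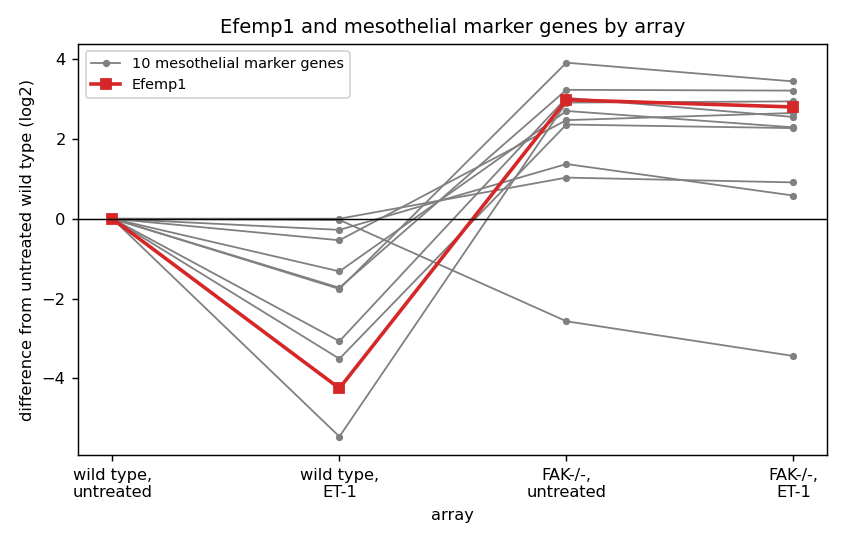
Difference from untreated wild type (log2) on each array for Efemp1 (red squares) and 10 mesothelial marker genes (grey), each by its brightest probe set; lines join the values of 1 gene. Efemp1 and 6 markers are more than 2-fold lower in ET-1-treated wild type, and 1 marker, Krt19, is lower in the knockout.

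Likeness of pattern was measured as the root mean square difference between values centred on each gene's mean over the 4 arrays. Closest to Efemp1 among the 12290 genes were the imprinted zinc-finger gene Peg3 (0.10), the kinase Stk26 (0.13), Frmd4b (0.26), the adhesion protein Mpzl2 (0.36) and Bex1 (0.44). Peg3 read 11.54 and 7.03 in untreated and ET-1-treated wild type and 14.40 and 14.32 in the knockout. Closest to the bright Eln probe set were Smad6, an inhibitor of BMP signalling (0.05), D130051D11Rik (0.06), Lbp (0.12), the adhesion molecule Cadm1 (0.18) and the ETS factor Etv5 (0.19). Smad6 read 11.01 and 10.30 in wild type and 11.94 and 12.70 in the knockout. These are descriptions over 4 arrays and carry no test.

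Partners of elastic fibres were followed in 5 further lists, chosen with earlier results of these data known. Over all genes, 7.05% fell and 6.6% rose in the knockout by limma averaged over treatments, and the median untreated difference was 0.02. Of 22 microfibril-associated genes tested, 7 fell and 3 rose by that test, and 6 more were below 8.90 in every array. The list median was -0.03 in untreated cells, beside 0.02 for all genes. Ltbp1, which anchors latent TGF-beta to microfibrils, fell by 4.12 ± 0.14 (limma, adjusted p = 0.00556), with both knockout values (7.59 and 7.19) below 8.90, so the size is uncertain. Vcan, the proteoglycan versican, differed by -2.26, and Emilin2, the relative of Emilin1, by -2.23, both lower. Mmrn1, another protein of the emilin family, rose by 1.87 from wild-type values of 7.64 and 7.45, with the same limit on size. The microfibril glycoprotein Mfap2 read 11.75 and 11.67 in wild type and 11.42 and 11.17 in the knockout and did not pass (adjusted p = 0.19, limma).

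Enzymes that crosslink or handle tropoelastin were mixed. Of 11 tested, 3 fell and 2 rose (against 7.05% and 6.6% of all genes), with a median of -0.07 in untreated cells, beside 0.02 for all genes. Lox, the main lysyl oxidase of elastin, read 14.20 and 14.44 in untreated and ET-1-treated wild type and 13.19 and 12.94 in the knockout. It fell by 1.26 ± 0.17 (limma, adjusted p = 0.0216). Loxl4 also differed by -1.26 and passed. The genes that rose were the transglutaminase Tgm2 (1.66) and Atp7a, the pump that supplies copper to lysyl oxidases (1.21).

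Among 16 elastolytic enzymes and inhibitors tested, 4 fell and 0 rose (against 7.05% and 6.6% of all genes), with a median of -0.34 in untreated cells, beside 0.02 for all genes. They were stromelysin Mmp3 (-1.82), the elastase Cela1 (-1.41), the inhibitor Timp1 (-1.39) and the gelatinase Mmp2 (-1.23). The knockout values of Mmp3 (7.38 and 7.78) were below 8.90, so its size is uncertain. The macrophage elastase Mmp12 and the cathepsins Ctsk and Ctss were below 8.90 in every array. Of 7 integrin genes tested, Itgb8, whose protein helps release TGF-beta, rose by 2.62 ± 0.22 (limma, adjusted p = 0.0094) and Itgb3 by 0.84, while Itga5 (-0.47) and Itgb5 (-0.42) did not pass. Itgb8 read 7.84 and 7.38 in wild type, below 8.90, so the size of its difference is uncertain. Of 9 growth factor genes held by microfibrils, the activin subunit Inhba fell by 2.03 ± 0.23 (limma, adjusted p = 0.0153) and Bmp4 rose by 1.05. Tgfb3 (0.84) and Inhbb (-0.60) did not pass.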

How the data were processed

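The 4 arrays are Affymetrix Mouse Genome 430 2.0 GeneChips. The deposited table holds a log2 value for each probe set and array, made with RMA per the submitters' processing notes, of which no version is given here. The values run from 5.00 to 15.24 with array medians of 8.89 to 8.92, and 0 columns of other samples were present. Labelling was in 2 cycles from 100 ng of total RNA, per the labels' protocols, which can lose signal toward the 5' end of a transcript. Precision is limited by the number of arrays.

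Of 45101 probe sets, the platform annotation pairs 34958 with 1 gene and 932 with several, and 9211 are not listed. Differences between arrays were counted at 2-fold. The additive fit used limma 3.58.1 in R 4.3.3 (lmFit, eBayes with trend, prior degrees of freedom 2.996, Benjamini-Hochberg over 12290 genes, threshold 0.05) and was tested on simulated data. The remaining steps used Python 3.11.15, numpy 2.4.6, pandas 2.3.3 and matplotlib 3.10.9.

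The members and lists were chosen with earlier results of these data known. Named genes are all members, up to 4 genes of each partner list with the largest mean absolute genotype difference, and the 5 closest profiles of Eln and of the member with the widest range. Cst3, Mfap2, Mmp12, Ctsk, Ctss and the marker genes were named after their values were seen. Alternatives were the mean of all probe sets, other filters, other scalings, other eBayes settings, 1.5-fold and a fit over single probe sets.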

Additional observations from a re-analysis of the deposited data

Results flagged for a closer look

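For 4 members the ET-1 difference had opposite signs in the 2 genotypes, and this was not tested because each genotype has 1 array per state. The wild-type minus knockout term was -1.47 for Eln, -0.98 for Fbn2, 1.10 for Fbln5 and 0.72 for Mfap5, on the log2 scale. For Fbln5 the knockout difference was -0.03, so its sign there carries no weight. The other probe set of Eln gave -0.14, that of Fbn2 0.08, that of Fbln5 0.15 and that of Mfap5 0.44.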

How the results depend on the processing

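No paired analysis was possible because the labels give no replicate numbers and each group has 1 array. Of 8 members, 2 passed limma for genotype, Fbn2 and Emilin1, and both also passed under all 8 alternatives. The count was 3 with the mean of all probe sets, where Efemp1 also passed (adjusted p = 0.0422). It was 4 of the 7 members left by a filter at log2 10 and 4 with quantile normalisation, where Eln and Efemp1 passed as well. With array medians subtracted it was 5, where Mfap5 was the fifth. The cause was not tested. Over all genes the share that passed moved too, from 13.6% in the main fit to 17.4% with the mean of all probe sets. It was 20.6% with the filter at log2 10, 17% with quantile normalisation and 18.9% with array medians subtracted. The count over all genes ranged from 1497 to 2322 around 1677, with unlike numbers of genes tested. With the mean of all probe sets, members at 2-fold between genotypes went from 4 to 3 in untreated cells and from 6 to 4 after ET-1. The count after ET-1 was 5 of 7 with a filter at log2 10, which removes Mfap5, and 7 of 8 at 1.5-fold. Members at 2-fold after ET-1 in wild type numbered 2, but 1 with the mean of all probe sets, 1 with quantile normalisation and 5 at 1.5-fold. In the knockout the count of 0 became 1 at 1.5-fold. For the difference of ET-1 differences 3 became 1 with the mean of all probe sets, 2 with quantile normalisation and 7 at 1.5-fold. For these alternative fold counts no share of all genes is given here. Whether the counts at 1.5-fold differ from those of all genes was therefore not tested. Added after seeing the data, leaving out the ET-1-treated wild-type array left 4 members at 2-fold for genotype (against 9.65% of all genes), the same count as with it (against 9.69%). That setting compares the mean of the untreated and ET-1-treated knockout with untreated wild type alone, so treatment is not balanced in it. No 2-fold or limma call of a member changed sign under the 3 settings run gene by gene, which were the mean of all probe sets, subtracted medians and quantile normalisation. Values near 8.90, as for Fbn2 in wild type and Mfap5 in all arrays, limit the size of their differences.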

Other observations

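The 5 partner lists held 65 genes that passed the level filter. In wild type after ET-1, 0 of these 65 were at 2-fold or more, against 1.95% of all genes, and the largest difference was 0.67, for the protease inhibitor Cst3. In the knockout it was 0 of 65, against 0.513%, and the largest was 0.80, for Mmp2. Between genotypes 20 of the 65 were at 2-fold or more in untreated cells, against 9.37% of all genes, and 23 after ET-1, against 12.1%.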
